A study of Mus musculus with 6 samples.

Results

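The genes described here are named for the factors of cytoplasmic translation initiation and elongation. They were chosen by name, as the protein-coding rows of the count table whose symbols start with Eif1 to Eif6 or with Eef1 or Eef2. Names starting with Eif2ak, Eef2k or Eef1akmt, which mark kinases and methyltransferases, were dropped. This left 58 genes, 51 with Eif names and 7 with Eef names, of 54532 genes in the table, of which 22046 are protein-coding. They are called initiation and elongation factor genes below by name alone. Some of their products have other roles, given with each gene. Values were compared between 3 libraries of CD4+ T cells treated with idelalisib, which inhibits the lymphocyte-enriched delta form of the lipid kinase PI3K, and 3 libraries of control cells without it. All cells came from spleens of C57BL/6 mice and were kept for 72 h under conditions that favour T helper 1 (Th1) cells. Poly(A) RNA was sequenced and reads were counted per gene. Neither the dose and vehicle nor the sex and age of the mice were given in the sources used here. The labels call the libraries biological replicates without saying whether they came from separate mice, so the spread behind the p-values is that of these cultures and may be technical.

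Translation begins when initiation factors load the initiator tRNA on the small ribosomal subunit, recruit it to the mRNA cap and scan to the start codon. Elongation factors then deliver aminoacyl-tRNAs and move the ribosome along the message. In T cells, PI3K signalling feeds the kinase complex mTORC1, which phosphorylates the inhibitors of the cap-binding protein eIF4E. It also promotes translation of mRNAs with a 5′ terminal oligopyrimidine (TOP) tract, a class that includes many ribosomal protein and elongation factor mRNAs.

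More translation factor genes were lower than higher with idelalisib. Of the 58 genes, 55 had enough reads to be tested, and 7 were higher, 24 lower and 24 did not pass (edgeR quasi-likelihood test, adjusted p under 0.05 over all genes tested, n = 3 per group). Among all 14530 genes tested, 22.2% were called higher, 22.4% lower and 44.6% in either direction. The members' shares were 12.7% higher and 43.6% lower. In 8 members every idelalisib library lay above every control library, and in 28 every one lay below. Over all genes tested, 27.5% did not overlap on the higher side and 27.2% on the lower side. The median log2 fold change, idelalisib over control, was -0.19 over the tested members and 0.01 over all genes tested. In RNA from whole cultures, fewer cells of a type and less RNA per cell cannot be told apart.

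Most translation factor genes are abundant, and abundant genes as a whole were lower more often. Among the 6186 genes that averaged at least 30 CPM (reads scaled to a common library size), a limit chosen after the values were seen, 20.3% were called higher and 32.0% lower, with a median log2 fold change of -0.07. Of the 52 members above that limit, 6 were higher and 24 lower, which is 11.5% and 46.2%, with a median of -0.19. CPM values use library sizes scaled with trimmed means of M-values (TMM), and the call counts depend on that step. Scaled by library size alone, 13 members were higher and 18 lower, with a median of -0.04 over the members and 0.16 over all genes tested, and 68.5% of all calls lay on the higher side, against 49.7% with TMM. Leaving out control replicate 1 left 4 members higher and 24 lower.

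The size of the differences was moderate. Of the 31 called members, 14 had a log2 fold change of 0.5 or more in size, 4 of them higher and 10 lower, and in 2 it was at least 1. Over all genes tested, 28.1% were called with a difference of at least 0.5 and 11.7% with one of at least 1. The 3 untested members were at or near 0. Eef1a2, the elongation factor gene of muscle and neurons, had 1 read in idelalisib replicate 3 and 1 read in control replicate 2. Eif4e1b, an eIF4E relative known from oocytes, had no read in any library, and 3 reads per library, the upper limit that a count of 0 allows, correspond to 0.179 to 0.224 CPM in these libraries. Eif4ebp3, another 4E-binding protein gene, stood at 0.658, 0.354 and 0.776 CPM with idelalisib, against 0.626, 0.462 and 0.5 CPM in control cultures, and 65.5% of its 50-base words also occur in AC115631.1.

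**Figure D1:**
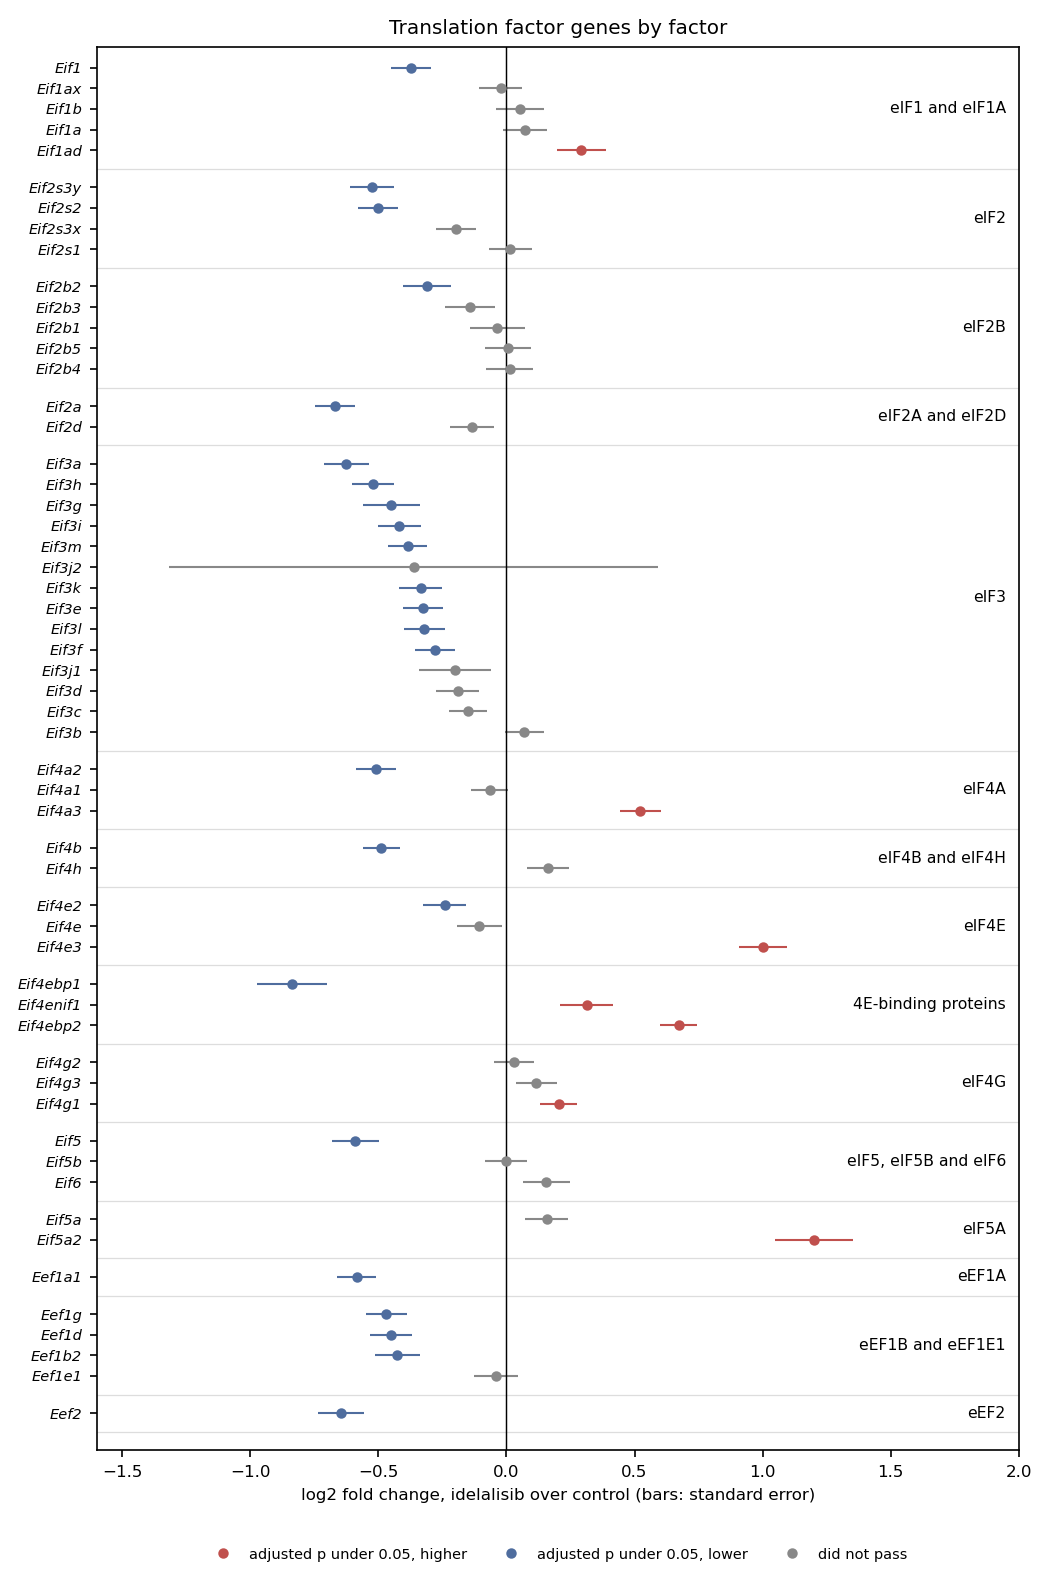
Log2 fold change of each of the 55 tested members, idelalisib over control, grouped by factor (points; bars, standard error; n = 3 per group). Red points passed the test as higher, blue points as lower and grey points did not pass. The elongation factor genes and eIF3 lie mostly left of 0, while Eif5a2, Eif4e3 and Eif4ebp2 lie farthest to the right.

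Total counts per library were 13372318 to 16770452. Correlations of log2 CPM were 0.983 to 0.990 within groups and 0.950 to 0.962 between them, and the second principal component, with 11.8% of the variance, set idelalisib replicate 2 off from replicates 1 and 3. All 10 CD4 T cell markers were detected, with summed levels of 3485 to 3859 CPM with idelalisib and 3814 to 3886 CPM in control cultures. Among them Cd3e and Cd3g were higher and Lck was lower. B cell markers summed to 29.03 to 36.7 CPM with idelalisib and 24.1 to 24.9 CPM in control cultures, and 6 of the 8 tested were higher. Ebf1, which did not pass, held the most of this sum, and without it the other 9 summed to 15.3 to 18.9 CPM with idelalisib and 8.82 to 9.36 CPM in control cultures. CD8 T cell markers summed to 15.3 to 21.0 CPM with idelalisib and 8.08 to 11.4 CPM in control cultures, with 2 of 4 higher. The higher ones were Eomes and Cd8a, at log2 fold changes of 1.69 and 0.91, while Cd8b1 and Gzmk, at 0.14 and 0.87, did not pass. Eomes alone had 7.18, 9.98 and 10.75 CPM with idelalisib, against 2.63, 3.24 and 2.79 CPM in control cultures. NK cell markers summed to 16.96 to 21.5 CPM with idelalisib and 12.3 to 17.2 CPM in control cultures, with 1 of 3 tested higher and Ncr1 at 0 throughout. Myeloid and dendritic markers summed to 11.5 to 15.3 CPM with idelalisib and 17.4 to 19.8 CPM in control cultures, with Cd68 lower among 2 tested and Siglech at 0. Cd68 held most of this sum, and without it the other 9 summed to 2.93 to 3.54 CPM with idelalisib and 1.29 to 2.77 CPM in control cultures. Both of these sums without a gene were added after its level was seen. The part of these other cells in the results was not tested.

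Sequences around annotated starts show which members carry a pyrimidine run near the place of a TOP tract. RefSeq windows (GRCm38.p6, the build of mm10) were matched for 44 members. In the 30 bases from 10 upstream to 20 downstream of each annotated start, on the transcribed strand alone, 9 of the 44 held a run of at least 8 C or T, or 20.5%, against 13.01% of 27025 gene symbols. A gene with several annotated starts was counted if any of its windows held a run. The 27025 symbols were not limited to genes expressed in these cells, and no share among expressed genes was computed. The longest run covers the annotated start, base 11 of the window, in 5 of them, Eef1a1, Eif2b5, Eif2s3x, Eif3f and Eif3l. In the other 4, Eif2b2, Eif2s3y, Eif4e and Eif4enif1, it lies elsewhere in the window. Of the 9, 1 was higher and 5 lower, with a median log2 fold change of -0.28. Of the 34 tested members without such a run, 5 were higher and 13 lower, with a median of -0.10. Over all genes tested 22.2% were higher and 22.4% lower, and among those averaging at least 30 CPM 20.3% and 32.0%. The following windows are shown because they cover genes called lower, genes called higher and genes that did not pass. Capitals mark the longest run where it reaches 8 bases.
Eef1a1 (chr9:78481705-78481734, minus strand): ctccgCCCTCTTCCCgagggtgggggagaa
Eif3f (chr7:108934405-108934434, plus strand): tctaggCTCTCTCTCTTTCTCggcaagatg
Eif3l (chr15:79075213-79075242, plus strand): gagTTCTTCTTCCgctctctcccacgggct
Eif2s3y (chrY:1010585-1010614, plus strand): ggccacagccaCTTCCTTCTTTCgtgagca
Eif2s3x (chrX:94212632-94212661, minus strand): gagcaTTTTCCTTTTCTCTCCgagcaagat
Eif2b5 (chr16:20498807-20498836, plus strand): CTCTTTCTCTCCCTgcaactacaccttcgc
Eif4enif1 (chr11:3202343-3202372, plus strand): gcgtgggaacgcggcgCCCTTCCTTgagtt
Eef2 (chr10:81176621-81176650, plus strand): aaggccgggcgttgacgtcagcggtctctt
Eif3a (chr19:60790674-60790703, minus strand): ctcgggcggcggcgctgccgccgcgaggga
Eif5a2 (chr3:28781267-28781296, plus strand): gcccgggctgggcgggccggggcggggagc
Eif4a3 (chr11:119300024-119300053, minus strand): cgccttacatccggttcccgccgcggcttg
Of the members shown with a run over the start, Eif2b5 had a log2 fold change of 0.005 and Eef1a1 of -0.58. The windows shown were picked by result, and a link between runs and fold changes was not tested. The fold changes are those of RNA, and translation of these mRNAs was not measured. Eef2 and Eif3a, both lower, have no run of 8 in this window, but the window edge limits what this shows. The longest run of Eef2, 6 bases, ends at base 30, the last of its window, so its full length was not measured. For Eif3a, the E-box window (chr19:60790654-60790683, minus strand) reaches farther downstream and ends in the C and T run ttccttccttt. Runs downstream of the start windows were not counted for any gene. Annotated starts need not be the ones used in these cells.

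A second set of windows concerns the E-box CACGTG, a palindrome that reads the same on both strands and is bound by MYC and related factors. It was looked for between 250 bases upstream and 50 downstream of each start. It occurred in 11 of the 44 members, or 25%, against 8.09% of the 27025 symbols. Those symbols were again not limited to genes expressed in these cells. The 11 are Eef2, Eif1b, Eif3a, Eif3f, Eif3k, Eif4a1, Eif4e, Eif4g1, Eif4h, Eif5a and Eif5a2. Of these 11, 2 were higher and 4 lower, with a median log2 fold change of -0.06. Of the 32 tested members without it, 4 were higher and 14 lower, with a median of -0.19. Over all genes tested 22.2% were higher and 22.4% lower, and among those averaging at least 30 CPM 20.3% and 32.0%. The difference between members with and without the motif was not tested. Capitals mark the E-box in 1 window of the highest-folded member, the eIF4G scaffold gene, the cap-binding gene and 2 genes that were lower.
Eif5a2 (chr3:28781123-28781152, plus strand): actaatccgcagCACGTGgggttgccaggg
Eif4g1 (chr16:20672661-20672690, plus strand): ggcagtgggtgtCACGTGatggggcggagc
Eif4e (chr3:138527192-138527221, plus strand): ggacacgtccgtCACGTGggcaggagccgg
Eef2 (chr10:81176576-81176605, plus strand): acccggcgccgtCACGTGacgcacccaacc
Eif3a (chr19:60790654-60790683, minus strand): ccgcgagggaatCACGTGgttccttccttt
These windows, picked by role and result, include genes called in both directions and Eif4e, which did not pass the test. A link between the motif and the fold changes was not tested.

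Most elongation factor genes fell. Of 6 tested, 5 were lower, or 83.3%, with a median log2 fold change of -0.46. Over all genes tested 22.4% were lower, and among those averaging at least 30 CPM 32.0%. Their summed share of each library was 2.35 ± 0.143% with idelalisib and 3.19 ± 0.125% in control cultures (SD, n = 3). Eef1a1 encodes eEF1A, which carries aminoacyl-tRNAs to the ribosome (ENSMUSG00000037742, mm10 chromosome 9, 78478449 to 78489151, minus strand). It had 11938, 12507 and 13093 CPM with idelalisib, against 17635, 18980.2 and 19671 CPM in control cultures (log2 fold change -0.58 with SE 0.08 and edgeR adjusted p = 4.06e-05). Every idelalisib library was below the lowest control library. Eef2 encodes the GTPase that moves the ribosome by 1 codon (ENSMUSG00000034994, mm10 chromosome 10, 81176631 to 81182498, plus strand). It had 7387, 7113 and 8817 CPM with idelalisib, against 11812, 12009 and 12674 CPM in control cultures (log2 fold change -0.65 with SE 0.09 and edgeR adjusted p = 5.7e-05). The groups did not overlap, and idelalisib replicate 3 was the highest of its group for both genes. Eef1a1 and Eef2 together took 2.14 ± 0.132% of all counts with idelalisib and 2.93 ± 0.117% in control cultures.

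The 3 genes for subunits of eEF1B, which recharges eEF1A with GTP, were all lower. Lower calls made up 22.4% of all genes tested and 32.0% of those averaging at least 30 CPM. Eef1g, its gamma subunit gene, had 1089, 1099 and 1251 CPM with idelalisib, against 1540.2, 1619 and 1602 CPM in control cultures (log2 fold change -0.47 with SE 0.08 and edgeR adjusted p = 0.000325). Eef1b2, which encodes a catalytic subunit, had 642, 779 and 735 CPM with idelalisib, against 901, 970.3 and 1027 CPM in control cultures (log2 fold change -0.43 with SE 0.09 and edgeR adjusted p = 0.00144). Eef1d, the gene of the other exchange subunit, had a log2 fold change of -0.45 (SE 0.08, adjusted p = 0.000529). Both Eef1g and Eef1b2 were separated between groups by more than their SDs. Eef1e1, whose product is a scaffold protein of the multi-tRNA synthetase complex, did not pass, at 42.4 ± 0.441 CPM with idelalisib and 43.6 ± 1.45 CPM in control cultures. Reads of Eef1a1 and Eef1g could be shared with pseudogenes, since 40.4% and 44.2% of the 50-base words in their transcripts occur in other genes. The processed pseudogene sharing most words with Eef1a1, Gm13456, had 349 to 575 counts per library, against at least 176644 for Eef1a1, and that of Eef1g, Gm4366, had 565 to 948 against at least 15521.

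**Figure D2:**
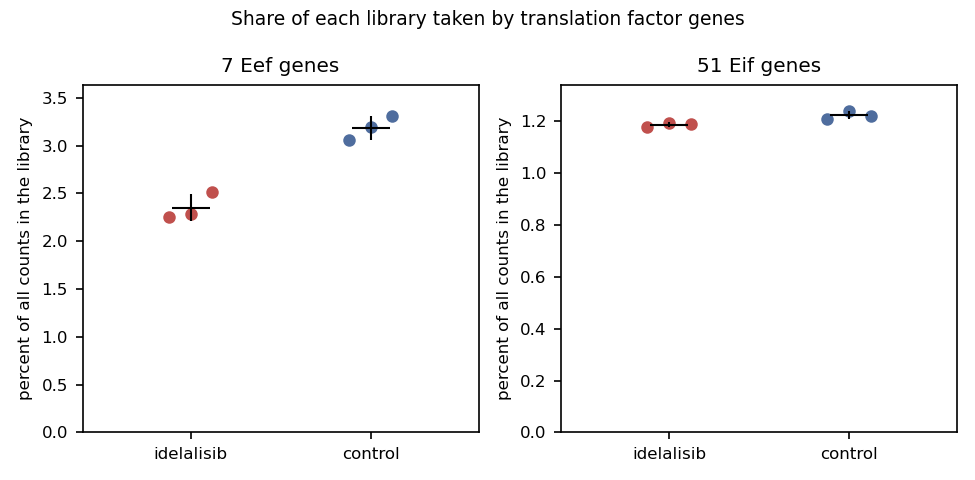
Percent of all counts in each library that fell on the 7 Eef genes (left) and the 51 Eif genes (right), for idelalisib and control libraries (points; line, mean; bar, SD; n = 3). The Eef share lies at 2.25 to 2.52% with idelalisib, below all control libraries, while the Eif share lies at 1.18 to 1.19% with idelalisib and at 1.21 to 1.24% in control cultures.

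The initiation factor genes together took 1.19 ± 0.00971% of all counts with idelalisib and 1.22 ± 0.0153% in control cultures, a small difference without overlap. Of the 49 tested, 7 were higher and 19 lower, or 14.3% and 38.8%, beside 22.2% and 22.4% of all genes tested. Among those averaging at least 30 CPM the shares were 20.3% and 32.0%. The higher ones include genes such as Eif4a3 and Eif4ebp2, whose products have other roles described below. Raw shares carry no TMM scaling. The sum of scaled values over the initiation factor genes was 11099.8, 11310.3 and 11407 CPM with idelalisib, against 12681, 13107 and 12988 CPM in control cultures.

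The first factors, eIF1 and eIF1A, keep the scanning ribosome open until it meets a start codon. Eif1 was lower, at 443, 439 and 484 CPM with idelalisib, against 568, 608 and 594 CPM in control cultures (log2 fold change -0.37 with SE 0.08 and edgeR adjusted p = 0.00136). Its close relative Eif1b and the eIF1A genes Eif1a and Eif1ax did not pass, with log2 fold changes of 0.05, 0.07 and -0.02. Eif1ad, which encodes a protein with an eIF1A-like domain, was higher, at a log2 fold change of 0.29 (SE 0.10, adjusted p = 0.0245). That call was lost without idelalisib replicate 1 (adjusted p = 0.0626), control replicate 1 (adjusted p = 0.136) or control replicate 3 (adjusted p = 0.0764). Of the exon bases of Eif1ad, 15.3% overlap Banf1 on the opposite strand, which had a log2 fold change of 0.27 (adjusted p = 0.0534). The strand setting of the counting was not given in the sources used here, so reads of these genes may be mixed.

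Of the 4 genes for eIF2, the GTPase that brings the initiator tRNA, 2 were lower and 2 did not pass. That is 50% lower, beside 22.4% of all genes tested and 32.0% of those averaging at least 30 CPM. Eif2s1 encodes the alpha subunit, whose phosphorylation shuts down general initiation. Its level was 121, 134 and 124 CPM with idelalisib, against 122, 134 and 119 CPM in control cultures, and its log2 fold change was 0.02, with -0.15 to 0.18 as the range of 2 SE on either side. Eif2s2, the beta subunit gene (ENSMUSG00000074656, mm10 chromosome 2, 154871410 to 154892935, minus strand), had 248, 267 and 241 CPM with idelalisib, against 346, 351 and 375 CPM in control cultures (log2 fold change -0.50 with SE 0.08 and edgeR adjusted p = 0.000155). Its idelalisib values were all below its control values.

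The gamma subunit has a copy on each sex chromosome in mice. Sex was not given in the sources used here, but every library had reads of the Y copy and so contained RNA of male cells. Eif2s3y, the Y copy (ENSMUSG00000069049, mm10 chromosome Y, 1010543 to 1028847, plus strand), had 109, 119.8 and 99 CPM with idelalisib, against 154, 159 and 159.6 CPM in control cultures (log2 fold change -0.53 with SE 0.09 and edgeR adjusted p = 0.000232). Eif2s3x, the X copy, had 162, 164 and 149 CPM with idelalisib, against 176, 187 and 182 CPM in control cultures (log2 fold change -0.20 with SE 0.08 and edgeR adjusted p = 0.052). Neither copy overlapped between groups, yet the X copy missed the threshold. The X copy passed in 5 of 15 alternatives. With edgeR its adjusted p was 0.0204 without idelalisib replicate 2 and 0.0327 with protein-coding genes alone. It was 0.0495 with RLE size factors, another scaling, and 0.04635 with a minimum count of 50. With limma-voom it was 0.049. The difference between the copies was not tested. Of the words of Eif2s3x, 34.6% occur elsewhere, in the pseudogene Gm2223 with 68 to 102 counts per library.

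Of the 5 genes for eIF2B, the exchange factor that reloads eIF2 with GTP, 1 was lower and 4 did not pass. The lower share was 20%, beside 22.4% of all genes tested and 32.0% of those averaging at least 30 CPM. Eif2b5, the catalytic epsilon subunit gene, had 67.7, 69 and 75.7 CPM with idelalisib, against 71.1, 76.2 and 64.5 CPM in control cultures (log2 fold change 0.005 with SE 0.09 and edgeR adjusted p = 0.969). Its groups overlapped widely. Eif2b1, Eif2b3 and Eif2b4 did not pass, with log2 fold changes of -0.04, -0.14 and 0.01. Eif2b2, the beta subunit gene, was lower, at a log2 fold change of -0.31 (SE 0.09, adjusted p = 0.0154). Its call was lost without idelalisib replicate 1, control replicate 1 or control replicate 2 (adjusted p = 0.0801, 0.0542 and 0.0675).

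Of the alternative tRNA-delivering factors, Eif2a was the lower initiation factor gene with the smallest adjusted p. Eif2a encodes a factor separate from eIF2 that can bind the initiator tRNA (ENSMUSG00000027810, mm10 chromosome 3, 58525821 to 58557501, plus strand). It had 123, 137 and 125 CPM with idelalisib, against 201, 205 and 205 CPM in control cultures (log2 fold change -0.67 with SE 0.08 and edgeR adjusted p = 1.36e-05). The control values lay within a few CPM of each other, and no idelalisib value came near them. Of its exon bases, 1.18% overlap Serp1 on the opposite strand, which was also lower, at a log2 fold change of -0.57. Eif2d, which encodes a factor that can also act in ribosome recycling, did not pass, at 71.5 ± 3.91 CPM with idelalisib and 78.5 ± 4.42 CPM in control cultures.

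**Figure D3:**
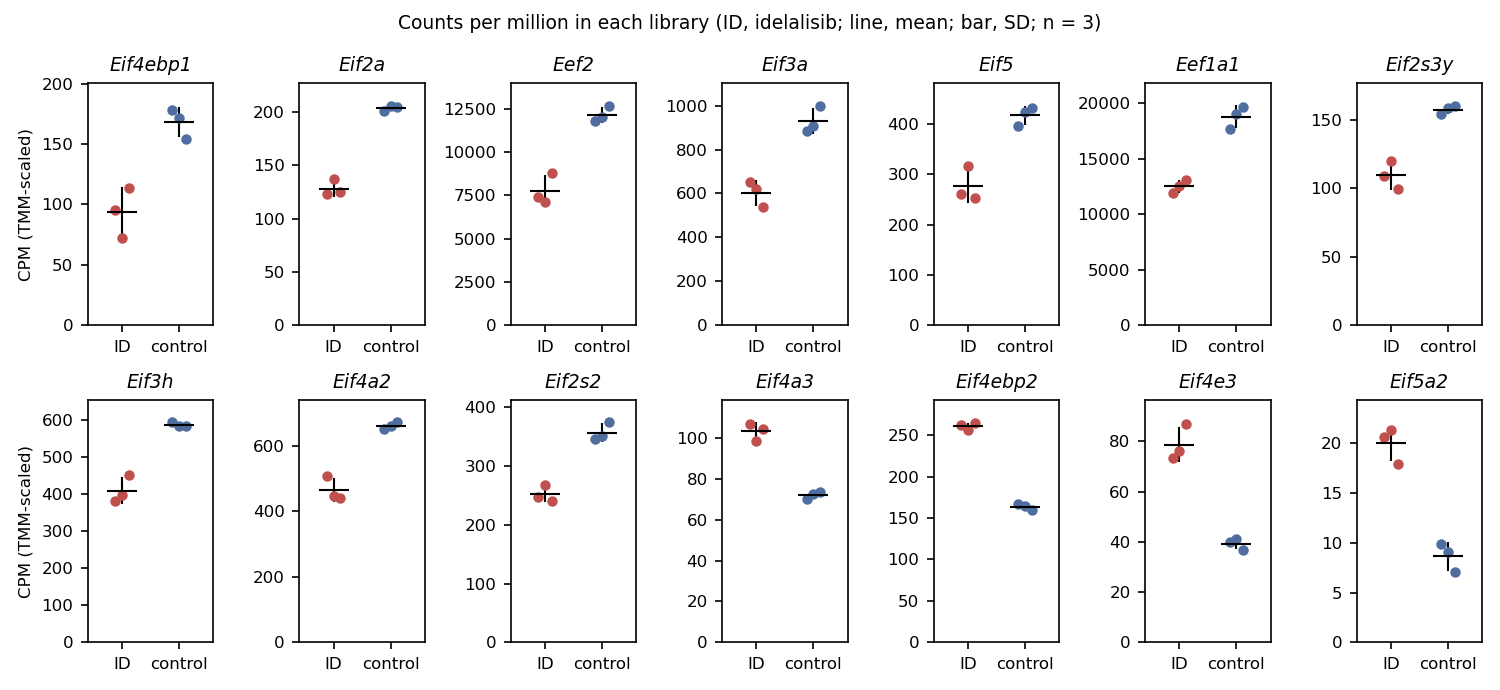
TMM-scaled CPM in each library for the 14 members called with a log2 fold change of at least 0.5 in size (points; line, mean; bar, SD; n = 3; ID, idelalisib). The first 10 panels show genes that were lower and the last 4 genes that were higher, and in none of the 14 do the groups overlap. They were chosen by their calls in these same libraries, so this separation is no separate result. Over all genes tested, 54.6% did not overlap in either direction.

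The scaffold factor eIF3 holds the small subunit and the mRNA together. Of its 14 genes 9 were lower, or 64.3%, and the other 5 did not pass. Over all genes tested 22.4% were lower, and among those averaging at least 30 CPM 32.0%. The summed level was 3459, 3564 and 3632 CPM with idelalisib, against 4426, 4576 and 4626 CPM in control cultures. The 8 subunits that form the octamer core (a, c, e, f, h, k, l and m) had 7 lower calls, and Eif3c, at a log2 fold change of -0.15, did not pass. The remaining 6 genes had 2 lower calls, Eif3g and Eif3i. The difference between these subgroups was not tested.

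Within the core, Eif3a and Eif3h had log2 fold changes below -0.5. Eif3a, the gene of the largest subunit (ENSMUSG00000024991, mm10 chromosome 19, 60761116 to 60790693, minus strand), had 652, 619 and 538 CPM with idelalisib, against 883, 908 and 999 CPM in control cultures (log2 fold change -0.63 with SE 0.09 and edgeR adjusted p = 7.49e-05). Eif3h (ENSMUSG00000022312, mm10 chromosome 15, 51786558 to 51865523, minus strand) had 381, 398 and 452 CPM with idelalisib, against 595, 586 and 585 CPM in control cultures (log2 fold change -0.52 with SE 0.08 and edgeR adjusted p = 0.000174). Idelalisib replicate 3 was the lowest of its group for Eif3a and the highest for Eif3h. Eif3e had 302, 344 and 304 CPM with idelalisib, against 386, 397 and 408 CPM in control cultures (log2 fold change -0.33 with SE 0.08 and edgeR adjusted p = 0.00434). The log2 fold changes of Eif3m, Eif3k, Eif3l and Eif3f were -0.39, -0.34, -0.32 and -0.28. Eif3f lost its call without idelalisib replicate 1, control replicate 2 or control replicate 3 (adjusted p = 0.0573, 0.0541 and 0.0655). Under library size alone Eif3e, Eif3f, Eif3k and Eif3l were no longer called, and Eif3b, outside the core, was called higher at 0.22.

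Outside the core, Eif3g and Eif3i were lower, at log2 fold changes of -0.45 (SE 0.11, adjusted p = 0.00468) and -0.42 (SE 0.08, adjusted p = 0.00119). Both encode subunits that join eIF3b in a separate module. Eif3b itself had a log2 fold change of 0.07, with 276 ± 15.2 CPM with idelalisib and 263 ± 1.34 CPM in control cultures. Eif3d, which encodes a subunit that can bind the cap, had a log2 fold change of -0.19 and passed without idelalisib replicate 3 (adjusted p = 0.0215). Of its exon bases 43.3% lie opposite Gm17638, which had 11 to 31 counts per library against at least 2088 for Eif3d.

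The mouse has a pair of eIF3j genes, Eif3j1 and Eif3j2, which share most of their sequence. Of the words of Eif3j2, 90.8% occur in Eif3j1. Eif3j2 had 13.2, 2.62 and 3.34 CPM with idelalisib, against 15.8, 5.42 and 3.29 CPM in control cultures, and its log2 fold change of -0.36 had an SE of 0.95. Replicate 1 was high in both groups, and the spread within groups exceeded the difference between them. Eif3j1 had 51.7, 69.3 and 64.9 CPM with idelalisib, against 56.3, 76.2 and 81.4 CPM in control cultures and replicate 1 was its lowest library in both groups (log2 fold change -0.20 with SE 0.14 and edgeR adjusted p = 0.266). Without control replicate 1 it passed at adjusted p = 0.0460. How reads were divided between the copies was not given in the sources used here.

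The cap-binding complex eIF4F joins the cap-binding protein eIF4E, the scaffold eIF4G and the helicase eIF4A. Of the 3 genes of the eIF4A family, 1 was higher, 1 lower and 1 did not pass. Each share was 33.3%, beside 22.2% higher and 22.4% lower over all genes tested. Among genes averaging at least 30 CPM these were 20.3% and 32.0%. Eif4a1 had 637, 618 and 641 CPM with idelalisib, against 658, 677 and 648 CPM in control cultures, without overlap but short of the threshold (log2 fold change -0.06 with SE 0.07 and edgeR adjusted p = 0.489). The paralogue Eif4a2 (ENSMUSG00000022884, mm10 chromosome 16, 23107444 to 23114136, plus strand) had 508, 446 and 441 CPM with idelalisib, against 652, 660.0 and 672 CPM in control cultures (log2 fold change -0.51 with SE 0.08 and edgeR adjusted p = 0.000169). Eif4a3, whose product marks exon junctions instead of acting in initiation (ENSMUSG00000025580, mm10 chromosome 11, 119288363 to 119300089, minus strand), had 107, 98.3 and 104 CPM with idelalisib, against 69.9, 72.4 and 73.4 CPM in control cultures (log2 fold change 0.52 with SE 0.08 and edgeR adjusted p = 0.000145). In reads, the ratio of Eif4a2 to Eif4a1 was 0.797, 0.721 and 0.687 with idelalisib, against 0.991, 0.976 and 1.04 in control cultures. All idelalisib ratios were below all control ratios, a log2 difference of -0.45 (exact two-sided permutation p = 0.1). Of the words of Eif4a1, 24.2% occur in the processed pseudogene Eif4a-ps4, which had 1338 to 1933 counts per library.

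Helpers of the helicase include eIF4B and eIF4H. Eif4b, which encodes an RNA-binding stimulator of eIF4A that is a target of S6 kinase, had 637, 627 and 632 CPM with idelalisib, against 854, 879 and 927 CPM in control cultures (log2 fold change -0.49 with SE 0.07 and edgeR adjusted p = 0.000124). Its 3 idelalisib values were close to each other and below every control value. Eif4h, its shorter relative, did not pass although its groups did not overlap, with 304 ± 25.2 CPM with idelalisib and 272 ± 3.22 CPM in control cultures (log2 fold change 0.16 with SE 0.08 and edgeR adjusted p = 0.115). Without idelalisib replicate 2 its adjusted p was 0.0120.

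The main cap-binding gene Eif4e did not pass, while Eif4e3 was higher and Eif4e2 lower. Eif4e had 108, 131 and 115 CPM with idelalisib, against 126, 132 and 123 CPM in control cultures (log2 fold change -0.11 with SE 0.09 and edgeR adjusted p = 0.345). Eif4e3, which encodes a cap-binding relative of eIF4E (ENSMUSG00000093661, mm10 chromosome 6, 99625135 to 99666771, minus strand), had 73.3, 76.2 and 86.8 CPM with idelalisib, against 39.9, 41.2 and 36.8 CPM in control cultures (log2 fold change 1.00 with SE 0.09 and edgeR adjusted p = 2.1e-06). All 3 idelalisib values of Eif4e3 lay far above its control values, 2.00-fold on average. Eif4e2, whose product 4EHP binds the cap without recruiting eIF4G, had 79.5, 85.3 and 88.8 CPM with idelalisib, against 94.4, 107 and 98.7 CPM in control cultures (log2 fold change -0.24 with SE 0.08 and edgeR adjusted p = 0.0324). The Eif4e2 call was lost without idelalisib replicate 1, control replicate 2 or control replicate 3 (adjusted p = 0.148, 0.150 and 0.0790). Of the words of Eif4e3, 11.5% occur in Gm20696, a gene on the same strand with 3 to 25 counts per library.

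The 4E-binding proteins compete with eIF4G for eIF4E, and their genes moved in opposite directions. Eif4ebp1 (ENSMUSG00000031490, mm10 chromosome 8, 27260329 to 27276674, plus strand) had 95.5, 72.6 and 114 CPM with idelalisib, against 178, 172 and 154 CPM in control cultures (log2 fold change -0.84 with SE 0.14 and edgeR adjusted p = 0.000428). Idelalisib replicate 2 was the lowest library, and all 3 were below the control cultures. Eif4ebp2 (ENSMUSG00000020091, mm10 chromosome 10, 61428491 to 61452661, minus strand) had 262, 256 and 265 CPM with idelalisib, against 167, 165 and 159 CPM in control cultures (log2 fold change 0.67 with SE 0.07 and edgeR adjusted p = 8.01e-06). The 3 values within each group were close to each other, and the groups did not overlap. Reads of Eif4ebp2 per read of Eif4ebp1 were 2.74, 3.52 and 2.32 with idelalisib, against 0.938, 0.956 and 1.03 in control cultures. This log2 difference of 1.53 was the largest in size of the 8 ratios computed. Eif4enif1, which encodes the eIF4E transporter 4E-T, was higher, at a log2 fold change of 0.31 (SE 0.10, adjusted p = 0.0227). Its log2 fold change was 0.20 without idelalisib replicate 2, and the call was lost without control replicate 1 or control replicate 2 (adjusted p = 0.130 and 0.0629).

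The 3 eIF4G scaffold genes had log2 fold changes between 0.03 and 0.20. Eif4g1 had 507, 509 and 496 CPM with idelalisib, against 446, 435 and 433 CPM in control cultures (log2 fold change 0.20 with SE 0.07 and edgeR adjusted p = 0.0322). Its groups did not overlap, but the call was lost without idelalisib replicate 1 or any 1 control library (adjusted p = 0.0587 to 0.125). Eif4g3, its paralogue, had 212, 189.7 and 190.2 CPM with idelalisib, against 190.3, 184 and 171 CPM in control cultures (log2 fold change 0.12 with SE 0.08 and edgeR adjusted p = 0.257). Eif4g2, whose product lacks the eIF4E-binding site, had 769, 848 and 745 CPM with idelalisib, against 759, 800.3 and 756 CPM in control cultures (log2 fold change 0.03 with SE 0.08 and edgeR adjusted p = 0.785). Both Eif4g3 and Eif4g2 overlapped between groups.

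**Figure D4:**
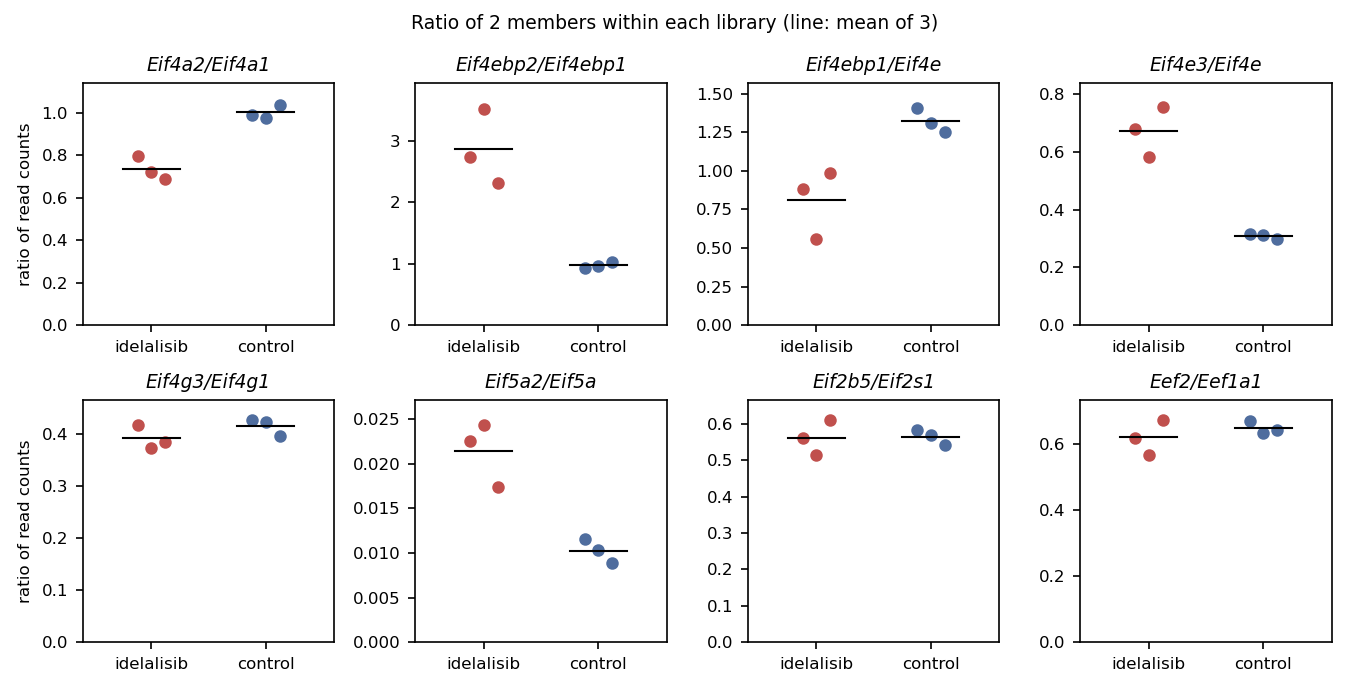
Ratio of the read counts of 2 members within each library, for the 8 pairs compared (points; line, mean of 3; idelalisib left of control). The Eif4ebp2/Eif4ebp1, Eif4e3/Eif4e and Eif5a2/Eif5a ratios lie higher and the Eif4a2/Eif4a1 and Eif4ebp1/Eif4e ratios lower with idelalisib without overlap, while the other 3 overlap.

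Ratios within a library do not depend on how libraries are scaled to each other. Of 8 ratios, 5 did not overlap between groups, each with exact two-sided permutation p = 0.1, the smallest that 3 libraries against 3 allow, and 0.16 after Benjamini-Hochberg adjustment over the 8. Beside those given above, Eif4ebp1 reads per Eif4e read were 0.884, 0.555 and 0.988 with idelalisib, against 1.41, 1.31 and 1.25 in control cultures. Without idelalisib replicate 2 the log2 difference of this ratio was -0.50, against -0.75 with all libraries. Eif4e3 reads per Eif4e read were 0.679, 0.583 and 0.753 with idelalisib, against 0.316, 0.313 and 0.299 in control cultures. The Eif4g3/Eif4g1 log2 ratio difference was -0.09 (exact permutation p = 0.2), and it was -0.13 without idelalisib replicate 1 and -0.05 without idelalisib replicate 2. The Eef2/Eef1a1 log2 ratio difference was -0.07 (exact permutation p = 0.5), and it was -0.0072 without idelalisib replicate 2, -0.13 without idelalisib replicate 3 and -0.05 without control replicate 1. The ratio Eif2b5 to Eif2s1 differed by -0.01 (exact permutation p = 0.9).

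Of the 3 genes for the late factors eIF5, eIF5B and eIF6, 1 was lower. That is 33.3%, beside 22.4% of all genes tested and 32.0% of those averaging at least 30 CPM. Eif5, the GTPase-activating protein gene for eIF2 (ENSMUSG00000021282, mm10 chromosome 12, 111538016 to 111546752, plus strand), had 261, 317 and 253 CPM with idelalisib, against 396, 423 and 432 CPM in control cultures (log2 fold change -0.59 with SE 0.09 and edgeR adjusted p = 0.000169). Idelalisib replicate 2 was the highest of its group and still below all control libraries. Eif5b, which encodes the GTPase of subunit joining, had 148, 159 and 144 CPM with idelalisib, against 141, 154 and 157 CPM in control cultures (log2 fold change -0.00 with SE 0.08 and edgeR adjusted p = 0.987). Eif6, whose product keeps free large subunits apart from small ones, had 96, 96.6 and 115 CPM with idelalisib, against 90, 97.7 and 89.1 CPM in control cultures (log2 fold change 0.15 with SE 0.09 and edgeR adjusted p = 0.185). Neither Eif5b nor Eif6 was separated between groups. Of the exon bases of Eif5b, 16.8% overlap Rev1 on the opposite strand, which was lower, at a log2 fold change of -0.46 (adjusted p = 0.00349).

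The eIF5A genes encode a factor that carries the modified amino acid hypusine and helps ribosomes through difficult stretches and termination. Eif5a had 917, 881 and 1033 CPM with idelalisib, against 854, 882 and 804 CPM in control cultures (log2 fold change 0.16 with SE 0.08 and edgeR adjusted p = 0.137). The groups overlapped by 1 control library, and without idelalisib replicate 2 the adjusted p was 0.0214. Eif5a2 (ENSMUSG00000050192, mm10 chromosome 3, 28781276 to 28798846, plus strand) had 20.7, 21.4 and 18 CPM with idelalisib, against 9.89, 9.05 and 7.08 CPM in control cultures (log2 fold change 1.20 with SE 0.15 and edgeR adjusted p = 2.78e-05). This 2.30-fold difference was the largest among the tested members, at a level far below that of Eif5a. The count ratio of Eif5a2 to Eif5a was 0.0226, 0.0243 and 0.0174 with idelalisib, against 0.0116, 0.0103 and 0.00885 in control cultures, a log2 difference of 1.06.

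Levels per length, as TPM (counts divided by gene length and scaled to a common sum), place the elongation factors at the top. Eef1a1 stood at 17368 ± 428 TPM with idelalisib and 22710.0 ± 1129 TPM in control cultures, and Eef2 came next at 8081 ± 738 TPM with idelalisib and 11045 ± 393 TPM in control cultures. With idelalisib, Eef1g at 1524 ± 79.7 TPM was followed by Eif5a at 1373 ± 81.6 TPM, and the ranges of 1 SD of these neighbours overlapped. In control cultures Eef1g was at 1842 ± 33.1 TPM, followed by Eef1b2, Eif3h and Eif5a at 1151 ± 70, 1102 ± 19.3 and 1075 ± 48.6 TPM, which overlapped in the same way. With idelalisib, Eif4ebp1 at 148 ± 29.6 TPM and Eif4ebp2 at 156 ± 2.99 TPM could not be ordered beyond their SDs. In control cultures Eif4ebp1 was above Eif4ebp2, at 231 ± 17.7 and 85.4 ± 2.43 TPM. Their partner Eif4e was at 68 ± 7.19 TPM with idelalisib and 63.8 ± 1.89 TPM in control cultures. Eif5a2, at 13.8 ± 1.56 TPM with idelalisib and 5.21 ± 0.886 TPM in control cultures, was among the lowest of the expressed members. TPM values carry no TMM scaling and serve here for the order of genes.

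**Figure D5:**
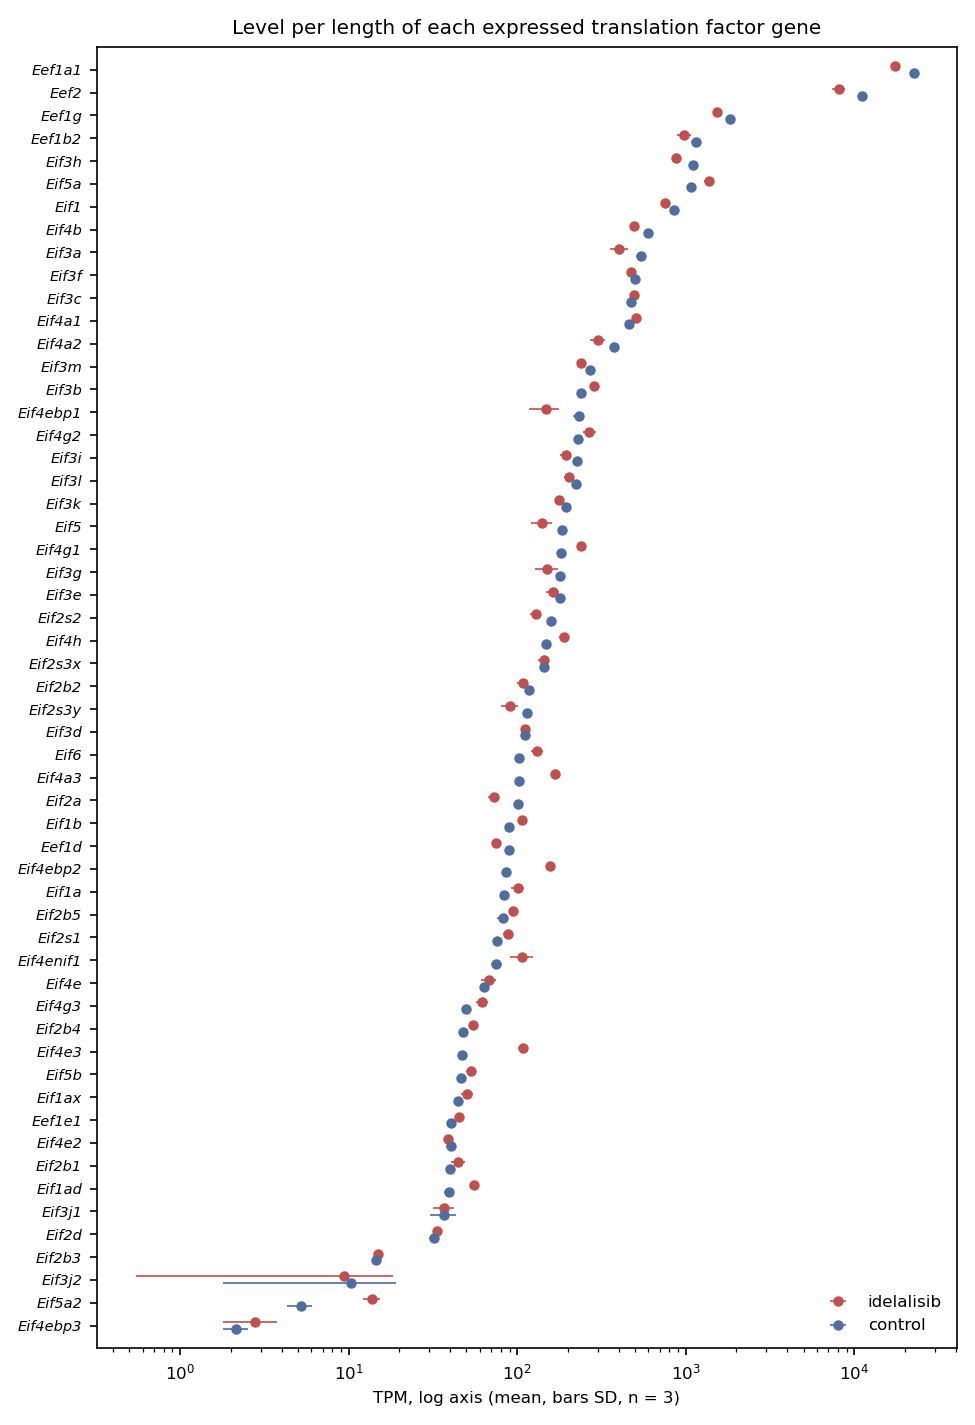
Level per length of every member above 1 TPM, in TPM on a log axis (points, mean; bars, SD; n = 3; idelalisib drawn above control in each row), ordered by the control mean. Eef1a1 and Eef2 stand apart at the top, and Eif5a2, Eif3j2 and Eif4ebp3 form the low end.

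Genes around these factors were followed through 5 lists with 68 genes tested, of which 6 were higher and 13 lower. These are 8.82% and 19.1%, against 22.2% and 22.4% of all 14530 genes tested. Among genes averaging at least 30 CPM the shares were 20.3% and 32.0%. Leaving out idelalisib replicate 1 left 3 of them higher and leaving out idelalisib replicate 2 gave 11. Scaled by library size alone, 19 were higher and 10 lower, and with upper-quartile scaling 12 were higher and 12 lower. Among 9 kinases, phosphatase subunits and co-factors that set eIF2 phosphorylation, 1 was higher and 3 lower (11.1% and 33.3%). Eif2ak2, the gene of the interferon-induced kinase PKR, had 83.2, 97.2 and 69.8 CPM with idelalisib, against 21.3, 24.4 and 23.9 CPM in control cultures (log2 fold change 1.84 with SE 0.12 and edgeR adjusted p = 7.93e-08). Eif2ak3, which encodes the endoplasmic reticulum kinase PERK, had 77.5, 72.5 and 65.2 CPM with idelalisib, against 130.1, 128 and 144 CPM in control cultures (log2 fold change -0.90 with SE 0.09 and edgeR adjusted p = 3.83e-06). Ppp1r15a, the gene of the stress-induced phosphatase subunit GADD34, had 54.2, 55.7 and 61.2 CPM with idelalisib, against 103, 91.8 and 104 CPM in control cultures (log2 fold change -0.80 with SE 0.09 and edgeR adjusted p = 8.53e-06). The groups were apart in all 3 genes.

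Of 20 partners and regulators of the cap complex, 2 were higher and 5 lower, or 10% and 25%, beside 22.2% and 22.4% of all genes. Among genes averaging at least 30 CPM the shares were 20.3% and 32.0%. Pabpc4, a poly(A)-binding protein gene, was lower, at a log2 fold change of -0.73 (SE 0.08, adjusted p = 5.23e-06). Gigyf1, which encodes a partner of 4EHP, was lower, at a log2 fold change of -0.72 (SE 0.09, adjusted p = 3.66e-05). Angel1, whose human counterpart binds eIF4E, was higher, at a log2 fold change of 0.61 (SE 0.20, adjusted p = 0.0245), a call lost without idelalisib replicates 1 or 3 or control replicates 2 or 3 (adjusted p = 0.0607 to 0.107). Of 16 genes for enzymes that modify elongation factors and eIF5A, 3 were higher (18.8%). Eef1akmt1, an eEF1A lysine methyltransferase gene, was higher, at a log2 fold change of 1.04 (SE 0.18, adjusted p = 0.000376). Dph6, of the diphthamide pathway that modifies eEF2, was higher, at a log2 fold change of 0.55 (SE 0.15, adjusted p = 0.00807), and without control replicate 1 its adjusted p was 0.0549. Eef1akmt2 was higher, at a log2 fold change of 0.35 (SE 0.13, adjusted p = 0.0388), and its call was lost without idelalisib replicate 1, control replicate 1 or control replicate 2 (adjusted p = 0.0961, 0.204 and 0.0752), and also with the replicate block, with DESeq2 and with no filter beyond 1 count (adjusted p = 0.0649, 0.0561 and 0.0534).

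Of 13 termination, rescue and recycling genes, 5 were lower (38.5%, beside 22.4% of all genes). Among genes averaging at least 30 CPM 32.0% were lower. Zfp598, which encodes the sensor of collided ribosomes, was lower, at a log2 fold change of -0.78 (SE 0.08, adjusted p = 6.29e-06). Hbs1l, of the rescue of stalled ribosomes, was lower, at a log2 fold change of -0.76 (SE 0.09, adjusted p = 1.25e-05), and Nemf, of the quality control of stalled chains, at -0.53 (SE 0.10, adjusted p = 0.000825). The release factor genes Etf1 and Gspt1 did not pass, at log2 fold changes of 0.01 and 0.05. Of 10 mitochondrial translation factor genes, edgeR called 0, with 2 at an unadjusted p under 0.05, and DESeq2 and limma-voom also called 0. Under library size alone 3 of the 10 were called higher.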

How the data were processed

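Raw read counts per gene were used as deposited by the authors, 1 column for each of the 6 libraries. The tools listed per the submitters' processing notes are featureCounts 1.5.0-p3, HISAT2 2.0.5 and fastp, with build mm10. Strandedness, multi-mapping reads and the annotation release were not given in the sources used here. Groups and replicate numbers come from the sample titles.

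The whole table was filtered with filterByExpr (minimum count 10, minimum total 15), scaled with TMM and tested in R 4.3.3 with edgeR 4.0.16 (quasi-likelihood F test, group alone), with Benjamini-Hochberg adjustment over all genes tested. Calls needed an adjusted p under 0.05. Each standard error is the size of the log2 fold change divided by the root of its F statistic. The scripts were checked on simulated counts. TPM values use the gene length in the table. Ratios add 0.5 counts to each gene and were tested by exact permutation with scipy 1.17.1.

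Every member could be named. Values in every library are given for called members with a log2 fold change of at least 0.5 in size and a mean of at least 1 CPM, and, whatever their result, for genes listed by role. Up to 3 called genes of each companion list with the largest change are named. Other details were chosen after the values were seen. Members and lists were chosen with earlier results of these data known.

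Transcripts of GENCODE M21, in which all 58 members occur and 55 have identical coordinates, gave shared sequence and exon overlap. At least 10% of the 50-base words of 17 members, and at least 30% for 7, also occur in other genes, and exons of 12 overlap a gene on the opposite strand. Alternatives were other scalings, DESeq2 1.42.0, limma-voom (limma 3.58.1), other filters and thresholds, protein-coding genes alone, the replicate number as a block and each library left out in turn. The erythroid marker list is not reported here.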

Additional observations from a re-analysis of the deposited data

How the results depend on the processing

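Of the 31 called members, 22 stayed called in all 15 alternatives in which genes were refitted, and 9 lost the call in at least 1; no called member changed direction in any of them. Of the 9, 6 lost it under library size alone (Eif2b2, Eif3e, Eif3f, Eif3k, Eif3l and Eif4e2), and 6 without a single library (Eif1ad, Eif2b2, Eif3f, Eif4e2, Eif4enif1 and Eif4g1). Of the 24 members that did not pass, 9 passed in at least 1 alternative. The 7 higher members became 13 under library size alone, 4 at an adjusted p under 0.01, 4 with a minimum log2 fold change of 0.5 and 4 to 9 with 1 library left out. The 24 lower members became 10 with that minimum and 21 to 25 with 1 library left out. The 6 higher companion genes became 12 under upper-quartile scaling, 19 under library size alone and 3 to 11 with 1 library left out. The cause was not tested. The Eif2b5/Eif2s1 log2 ratio difference, -0.01 with all libraries, ranged over -0.0719 to 0.0523 with 1 library left out, changing sign without idelalisib replicate 2 or control replicate 1. Over all genes tested, deviations of same-numbered libraries correlated at 0.08, -0.13 and -0.10. The replicate 1 libraries correlated best with each other, and the libraries numbered 2 and 3 did not correlate best with their own number. With 3 libraries per group, these values cannot tell whether the numbers mark pairs. With the replicate number as a block, 5 members were higher and 23 lower, and Eif1ad, Eif4e2 and Eif4g1 lost their calls, as did the companion gene Eef1akmt2. Pairing by number cannot change the 8 mean ratio differences, by arithmetic, so it is no check of them. Its smallest possible exact permutation p is 0.25. At these depths Eef1a2, Eif4e1b and Eif4ebp3 had too few reads for a test, and Eif3j2, at 37 to 252 counts per library, had an SE of 0.95.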
